A study of Mus musculus with 15 samples.

Results

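The lungs of 3 mice fed a diet with 500 ppm permethrin for 7 days were compared with those of 3 mice on the control diet, which held 0 ppm. These are 6 of the 15 arrays of the study, chosen by the diet that the labels give each mouse. The other 9 mice, 3 per diet, had 20, 2500 or 5000 ppm. All 15 were female Crlj:CD1(ICR) mice, labelled as 11 weeks old, and each array held RNA of the lung of 1 mouse. This is an outbred stock, so mice of a group differ in genotype, and the labels give no food intake or tissue dose. The labels call the 3 arrays of a diet biological replicates.

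Permethrin is a pyrethroid insecticide that holds voltage-gated sodium channels open. Mammals clear it through carboxylesterases and cytochrome P450 enzymes, and in liver pyrethroids can activate the nuclear receptors CAR and PXR, which switch on the genes of those enzymes. Reactive foreign compounds can also free the transcription factor Nrf2 from its inhibitor Keap1, and Nrf2 then drives genes for quinone reduction, glutathione conjugation and peroxide removal, many of them active in the club cells that line the small airways.

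Values below are log2 signals set so that the 75th percentile of each array is 0. A gene is 1 RefSeq symbol or, where a probe has no symbol, that probe. Of 33843 genes tested, 19064 had a symbol. Genes that define lung cell types were bright in all 6 mice: Sftpc, a surfactant protein of alveolar type 2 cells, lay between 9.23 and 9.41, Scgb1a1, the club cell secretory protein, between 9.40 and 9.72, and Ager, a marker of alveolar type 1 cells, between 8.18 and 8.92.

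No gene passed an adjusted p of 0.05 in limma (0 of 33843, 0%), and the smallest adjusted p was 0.943. At an unadjusted p under 0.05 limma had 973 genes (2.88%), against 1692 expected by chance. Of these, 703 were higher (2.08%) and 270 lower (0.798%) at 500 ppm. All 3 mice at 500 ppm lay above all 3 controls in 1554 genes (4.59%) and below them in 734 (2.17%). The median fold over all genes was 0.12. What follows therefore gives values, and none of the differences named passed the test.

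The third mouse at 500 ppm differed from the other two across the whole array. Its array lay on slide 2 with those at 2500 and 5000 ppm, whereas mice 1 and 2 shared slide 1 with all controls. It was the array with the most spots well above background (87.6%, against 72.0% to 82.3% on the other 14) and had 2 quality measures out of range, the negative control signal (47.6, against 33.5 to 37.8) and the detection limit of the spike-in series (2.34, against 1.27 to 1.80). The first principal component over the 6 arrays (58.29% of variance) set this mouse apart, and the second (22.51%) set control mouse 1 apart. No array had saturated spots.

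In the dimmest quintile of genes mouse 3 lay 1.53 above the control mean at the median, and in the brightest quintile it lay at -0.02. The same medians for mouse 1 were -0.10 and 0.11, and for mouse 2 -0.18 and 0.09. Without mouse 3 the median fold of all genes was 0.02 in place of 0.12, and the genes at an unadjusted p under 0.05 were 363 higher and 771 lower, with none past the adjusted threshold. A surplus of higher genes at 500 ppm was thus present with this array and absent without it, and most folds below are also given for mice 1 and 2 alone, a comparison that lies within slide 1.

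**Figure D1:**
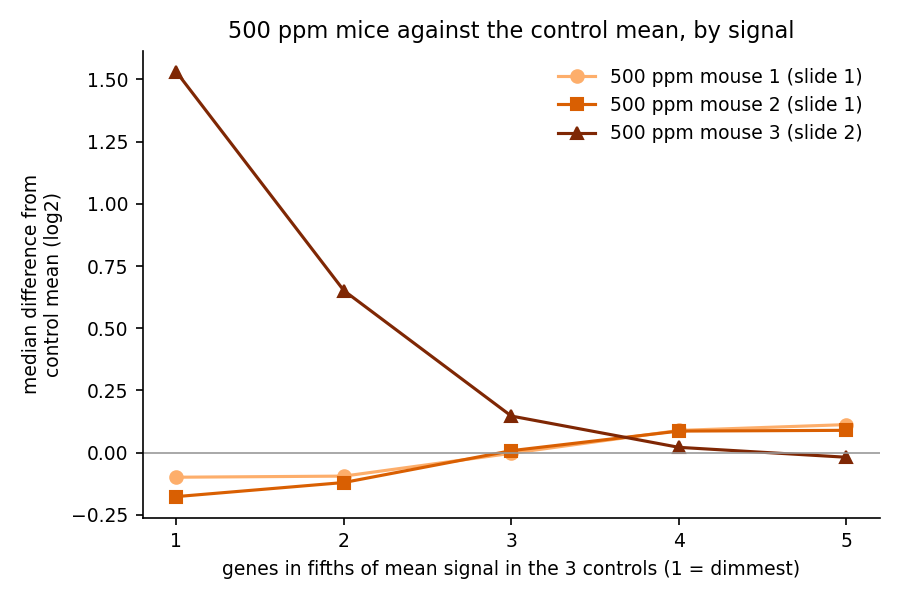
Median difference of each 500 ppm mouse from the mean of the 3 controls (log2, vertical axis) for genes in quintiles of their mean control signal (horizontal axis, 1 is the dimmest). Mouse 3 stands at 1.53 in the dimmest quintile and at -0.02 in the brightest, while mice 1 and 2 stay between -0.18 and 0.11.

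Cwc22 had the smallest p of all genes. It encodes a splicing factor that brings the helicase Eif4a3 to the spliceosome, a step in placing exon junction complexes on mRNA. The controls had log2 signals of 2.57, 2.05 and 1.47, and the mice at 500 ppm had -0.69, -0.69 and -0.43. The groups did not overlap, and the gap between them was wider than the range within either group. The fold was -2.63 ± 0.46 (SE), which is 6.21-fold lower, with a 95% interval from -3.62 to -1.64 and an adjusted p of 0.943 (limma). Without mouse 3 it was -2.72.

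Within slide 1, mice 1 and 2 at 500 ppm lay below the controls and below the 20 ppm group, which had 3.46, 1.96 and 2.92. The mice at 2500 ppm, on slide 2, had -0.83, -0.91 and -0.61. Those at 5000 ppm had -0.56, -0.53 and 1.13, so the third mouse of that group lay between the low and the high mice. Over the 15 mice, all 9 at 500 ppm or more lay below all 6 on the control and 20 ppm diets.

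Such a split of 9 mice below 6 was seen in 44 of the 33843 genes, and 49 genes had all 9 above the 6. Cwc22 has 3 probes on the array, and the other two gave folds of -1.64 and -0.96. On the second probe the 500 ppm mice, at -1.70, -1.75 and -0.94, stayed below controls at 0.77, -0.12 and -0.12. On the dimmest probe mouse 3 (-2.53) lay within the controls (-2.43, -2.17 and -3.31), and mice 1 and 2 (-3.91 and -4.37) below them.

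Ranked by p, the first 8 genes held Cwc22 and 7 probes without a symbol, of which 6 were lower at 500 ppm. A_52_P465669 had 0.52, 0.30 and -0.59 in the controls and -4.20, -4.75 and -3.07 at 500 ppm, a fold of -4.08 ± 0.73 (SE). A_55_P2093749 had 0.00, -0.14 and -1.07 against -4.74, -4.48 and -3.01, a fold of -3.67. A_66_P109224 had 5.95, 6.18 and 5.66 against 3.76, 4.44 and 4.26, a fold of -1.78.

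For A_52_P135873 and A_55_P2735455 the folds were -1.35 and -1.89. A_55_P1997434 was not well above background in any mouse at 500 ppm and was at least 2.11-fold lower than in the controls. This bound sets the control mean against the dimmest signals the arrays called above background. In all 6 probes the groups did not overlap, and the folds of the other 5 without mouse 3 ran from -4.55 to -1.40.

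The seventh probe, A_55_P2936083, was higher, with -4.11, -4.05 and -4.46 in the controls and -3.47, -3.18 and -2.35 at 500 ppm. Its fold was 1.21 ± 0.25 (SE), or 0.88 without mouse 3, and the 9 mice of the other permethrin diets stood at -4.25 to -3.79. What these 7 probes detect was not settled here, and they were singled out after their values were seen.

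**Figure D2:**
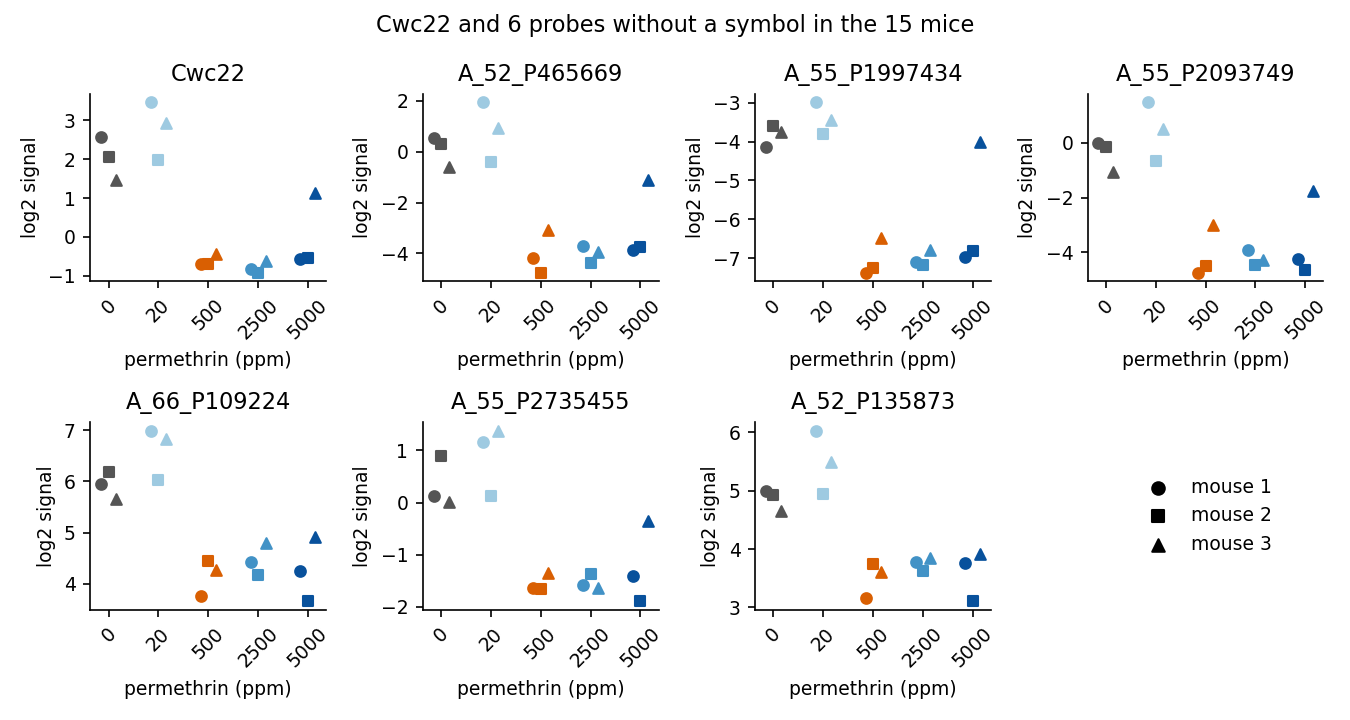
Log2 signal (vertical axes, 75th percentile of each array at 0) of Cwc22 and of 6 probes without a symbol in all 15 mice, by permethrin in the diet in ppm (horizontal axes), with 1 point per mouse and the marker giving the mouse number. The mice at 500 ppm lie below the control and 20 ppm mice on each panel, with those at 2500 ppm, and mouse 3 at 5000 ppm stands higher than its group on several.

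With the median of each array as the scale, Cwc22 and 3 of these probes passed the adjusted threshold in limma (adjusted p 0.0164 for each). They were the genes called at that scale, and all 4 were lower at 500 ppm, with folds of -4.31 for A_52_P465669, -3.90 for A_55_P2093749 and -2.86 for Cwc22. The fourth, A_55_P1997434, has no more than the bound above, since no 500 ppm mouse measured it above background. It also passed within slide 1 (adjusted p 0.0141) and when mouse 3 at 5000 ppm was left out of the shared fit (adjusted p 0.00249), and these 2 calls rest on values below background.

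The other genes that act with Cwc22 gave no such values. Of 32 measured genes of the exon junction complex, the late spliceosome and nonsense-mediated decay, Cwc22 was the one with an unadjusted p under 0.05 (2.88% of all genes). Of the list 2 lay wholly below the controls, Cwc22 among them (2.17% of all genes), and 1 above (4.59%). The median fold of the list was 0.09, beside 0.12 over all genes tested. The helicase Aquarius (Aqr), which rests on intron RNA in the late spliceosome, had a fold of 0.34 with overlapping groups. Its other probes gave 0.57, 0.16 and -0.09.

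Among genes with a symbol that were higher in all 3 mice, Ust had the smallest p. It encodes uronyl 2-sulfotransferase, which adds sulfate to the uronic acid of chondroitin and dermatan sulfate chains. The controls had -3.46, -3.91 and -3.34 and the mice at 500 ppm -2.86, -2.61 and -2.61, a fold of 0.88 ± 0.18 (SE), or 0.84 without mouse 3. Ust is a dim gene, and with normexp background correction its fold was 0.28. All 9 mice at 500 ppm or more lay above the other 6, as they did for Platr22.

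Platr22, a long noncoding RNA named for its expression in pluripotent cells, had -0.72, -0.52 and -0.49 in the controls and 0.08, -0.13 and 0.05 at 500 ppm. The groups were apart by more than their spread, and the fold was 0.58 ± 0.13 (SE), or 0.55 without mouse 3. Its folds at 2500 and 5000 ppm are set against the same 3 controls, and at 5000 ppm the fold was 0.59.

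A second sulfotransferase was near the top as well. Hs3st1 makes the 3-O-sulfated heparan sulfate that binds antithrombin, and it had -0.36, -0.21 and -0.11 in the controls against 0.77, 0.29 and 0.28 at 500 ppm. Its fold was 0.67 ± 0.18 (SE), and it was 0.75 without mouse 3. Against the mean of the 20, 2500 and 5000 ppm diets Hs3st1 was 0.49 ± 0.14 (SE) higher at 500 ppm, which did not pass either.

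The wider list of 30 measured genes of proteoglycan sulfation had 27 folds above 0, but 70.3% of all genes did too. Its median was 0.14, beside 0.12 over all genes, and turned to -0.09 with the array median as the scale, where all genes had -0.11. Ust, Hs3st1 and Chst15, which sulfates chondroitin chains at a further position, were the 3 members wholly above the controls (4.59% of all genes were), and none lay wholly below. Chst15 had 0.94, 1.85 and 1.84 in the controls and 1.94 to 2.11 at 500 ppm, a fold of 0.47 that was 0.51 without mouse 3 and 0.17 without control mouse 1.

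Among the 12 genes with a symbol that had the smallest p and lay wholly above the controls, none passed the test, and being wholly above is how they were chosen. Ndufv3, a small subunit of respiratory complex I, had 4.66, 4.58 and 4.96 in the controls and 5.39, 5.52 and 5.98 at 500 ppm, a fold of 0.89 ± 0.21 (SE), or 0.72 without mouse 3. Mice 2 and 3 at 20 ppm, at 5.42 and 5.45, lay within the range of the 500 ppm mice. Igsf23, an immunoglobulin superfamily gene, had -3.33, -3.23 and -3.02 against -1.84, -2.77 and -2.53, a fold of 0.81 that was 0.54 without mouse 1 and 0.88 without mouse 3.

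Igsf23 stood at -3.26 to -2.94 in all 9 mice of the other permethrin diets. Its difference from the mean of those diets was 0.69 ± 0.17 (SE), with an adjusted p of 0.98 (limma), and mouse 1 was the highest of the 3. Agrp, known as an appetite peptide of the hypothalamus, had -1.15, -1.08 and -0.60 in the controls and -0.03, -0.49 and 0.03 at 500 ppm, and its fold of 0.78 (0.68 without mouse 3) stood beside 1.39 at 5000 ppm against the same controls.

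Nfia, a transcription factor of the nuclear factor I family, had 0.36, 0.59 and 0.60 in the controls and 0.96, 1.10 and 0.98 at 500 ppm. Its fold was 0.49, or 0.51 without mouse 3, and a second probe gave -0.27. Kcnj10, an inward rectifier potassium channel, and Pdia2, a protein disulfide isomerase, had folds of 0.88 and 0.62, or 0.79 and 0.46 without mouse 3.

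The other genes of this group were dim. Slc17a2, an anion transporter, had a fold of 1.53, or 1.51 without mouse 3. With normexp it was 0.54, and at 20 ppm the fold against the same controls was 1.64. Itih5l-ps, a pseudogene, was well above background in 1 of 3 controls and Ranbp3l, a nuclear export factor, in 2 of 3, beside all 3 mice at 500 ppm for both, so they were kept through the group where they are high. Their measured folds of 1.02 and 1.03, or 0.87 and 0.60 without mouse 3, rest in part on control signals below background. With normexp these folds were 0.20 and 0.26.

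**Figure D3:**
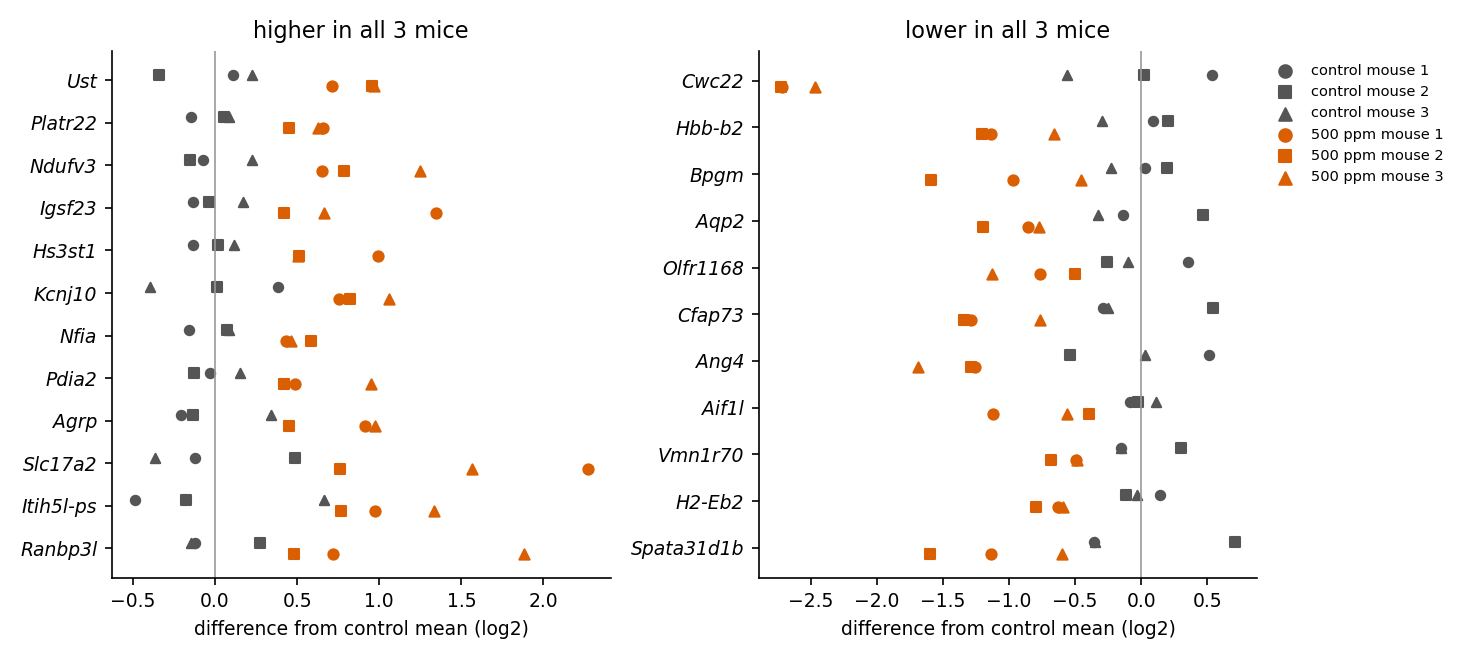
Difference from the mean of the 3 controls (log2, horizontal axes) for genes with a symbol and the smallest p among those higher (left, 12 genes) and lower (right, 11 of the first 12 genes) in all 3 mice at 500 ppm. Grey points are the controls and orange points the 500 ppm mice, with markers for mouse 1, 2 and 3. Cwc22 lies near -2.63, most genes within 1.5 of 0, and mouse 3 lies nearest to the controls for Hbb-b2 and Bpgm.

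Among the genes with a symbol that lay lower in all 3 mice with the smallest p, Hbb-b2 and Bpgm are abundant in red blood cells. Hbb-b2, an adult beta-globin, had 8.47, 8.58 and 8.08 against 7.24, 7.17 and 7.72, a fold of -1.0 ± 0.25 (SE).

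Bpgm makes 2,3-bisphosphoglycerate, which lowers the oxygen affinity of haemoglobin. It had 2.56, 2.72 and 2.30 against 1.56, 0.94 and 2.07, a fold of -1.01 ± 0.25 (SE). In both genes mouse 3 was the highest of the treated mice, and the folds without it were -1.17 for Hbb-b2 and -1.28 for Bpgm. The 500 ppm mice also lay below the mean of the other permethrin diets, by -0.54 for Hbb-b2 and -0.48 for Bpgm, and neither difference passed adjustment.

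The list of 13 measured erythroid and platelet genes had a median of -0.26, beside 0.12 over all genes, and of -0.35 without mouse 3. Its median ran from -0.49 to -0.05 over 33 alternatives, of which those that leave out an array of another diet cannot move it. Of its members 3 had an unadjusted p under 0.05, all lower (0.798% of all genes), and 1 lay wholly below the controls (2.17% of all genes). Hbb-b1, another beta-globin, had 6.34, 5.95 and 5.0 against 4.46, 4.10 and 4.94, a fold of -1.26, or -1.49 without mouse 3.

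The other members with an unadjusted p under 0.05 were Slc4a1, the anion exchanger of the red cell membrane, at -1.25, and Alas2, the first enzyme of erythroid heme synthesis, at -0.78. Without mouse 3 they were -1.73 and -1.06. For both, mouse 3 lay within the controls, with Slc4a1 at 0.90 beside controls at 1.02, 1.62 and 0.89. The alpha-globin Hba-a1 had 9.29, 9.56 and 9.39 against 9.39, 9.34 and 9.37, a fold of -0.05, while another of its probes gave -0.73. In whole lung, fewer cells of a type and less RNA per cell cannot be told apart.

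The remaining genes of the lower group had diverse roles. Aqp2, a vasopressin-regulated water channel of the kidney, had 0.65, 1.26 and 0.46 in the controls and -0.07, -0.41 and 0.02 at 500 ppm, a fold of -0.94 ± 0.24 (SE), or -1.03 without mouse 3. Cfap73, a ciliary protein gene, had 0.74, 1.57 and 0.78 against -0.25, -0.31 and 0.26, a fold of -1.13, while the 18 measured ciliated cell genes had a median of 0.19. Spata31d1b, a testis gene, had -1.11. Without mouse 3 Cfap73 had -1.31 and Spata31d1b -1.36.

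Ang4, an antimicrobial ribonuclease of the angiogenin family, had 0.56, -0.49 and 0.08 against -1.21, -1.23 and -1.64, a fold of -1.41 ± 0.41 (SE), or -1.27 without mouse 3. Its values at the other permethrin diets, from -2.20 to -0.38, overlapped those at 500 ppm. H2-Eb2, a class II histocompatibility gene, had a fold of -0.67 and Aif1l, an actin-binding protein gene, one of -0.69. The receptor genes Olfr1168 and Vmn1r70, of the olfactory and vomeronasal families, had -0.80 and -0.55. Olfr1168 was well above background in all 3 controls and in 1 of 3 mice at 500 ppm. It was thus kept through the controls, where it is high. With normexp its fold was -0.09, and that of H2-Eb2, which is dim as well, was -0.14. Without mouse 3 the folds were -0.71 for H2-Eb2, -0.76 for Aif1l, -0.63 for Olfr1168 and -0.59 for Vmn1r70.

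Among genes with a symbol, several of the largest folds rested on values that varied widely between mice. Fank1 had a fold of 2.63 with control mouse 1 at -7.53, while the other 2 controls were at -0.45 and -0.22, beside -0.20, -0.06 and -0.07 at 500 ppm. Without that control, which was not well above background, the fold was 0.23, and without mouse 3 it was 2.61.

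Bcan, a brain proteoglycan, had -4.57, -4.28 and -4.36 against -0.58, -3.95 and -1.83, a fold of 2.28, or 2.14 without mouse 3. Mice at 20 ppm (-0.41 and 0.04), 2500 ppm (-0.54) and 5000 ppm (0.50) lay as high. Dlgap1, a synaptic scaffold gene, and Slc6a12, a betaine transporter gene, also overlapped the other diets at 500 ppm. Both were well above background in 1 of 3 controls and in all 3 mice at 500 ppm, so they were kept through the group where they are high and no fold is given.

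Apol7c, an apolipoprotein L gene active in dendritic cells, had -1.93, -3.98 and -4.41 in the controls and -1.91, -0.97 and -1.86 at 500 ppm. Its fold was 1.86, and its lowest treated mouse was barely above control mouse 1. Against the mean of the other permethrin diets it was 2.34 ± 0.65 (SE) higher, with an adjusted p of 0.98 (limma), and 1 mouse at 5000 ppm, at -1.38, lay as high as the 500 ppm mice.

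Ear6 and Ang6, both of the ribonuclease A superfamily, took 2 levels across the study. Ear6 stood at 0.47 in mouse 3 at 500 ppm, at -0.04 in mouse 1 at 20 ppm and at 0.09 in mouse 3 at 5000 ppm, and between 3.75 and 5.73 in the other 12 mice. Ang6 was low in the same 3 mice, at 0.41, 0.46 and 0.16, and between 2.17 and 3.84 in the rest. The folds at 500 ppm of -2.45 and -1.85 were -1.22 for both without mouse 3.

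The related genes Ear1 and Ear2, made by alveolar macrophages and eosinophils, had folds of -1.11 and -0.68, and Ear1 had 5.64, 5.57 and 5.83 against 4.91, 4.73 and 4.05. Without mouse 3 the folds were -0.86 and -0.52. These genes are near copies of one another, and their probes may share signal. Ear1 and Ear2 were picked by p from 16 measured alveolar macrophage genes, whose median was -0.05, or -0.02 without mouse 3. Of those 16 genes, 7 had a fold above 0. Baiap2l1, an actin and membrane bending protein gene, had 2.24, 0.34 and 0.41 against -2.37, 0.00 and -2.63, a fold of -2.67 (-2.18 without mouse 3), and took a like range in the other diets. Arsk, a lysosomal sulfatase, had 0.19, -0.34 and -0.39 against -1.77, -1.84 and -1.99, a fold of -1.69 (-1.63 without mouse 3), with mice at 20, 2500 and 5000 ppm at both levels.

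The antioxidant genes are those for which the 500 ppm diet can be set against the higher ones. For orientation, short stretches upstream of 4 of them are shown here with the core of the antioxidant response element, the DNA motif bound by Nrf2 with small Maf proteins. G6pdx and Mgst1 were higher in all 3 mice at 500 ppm, and Gclm and Txnrd1 were not. Capitals mark the match to TGACNNNGC, read on either strand, in RefSeq promoter sequence of the GRCm38.p6 build (chrX:74428899-74428967, minus strand, for G6pdx; chr6:138140441-138140509, plus, for Mgst1; chr3:122245393-122245461, plus, for Gclm; chr10:82859084-82859152, plus, for Txnrd1).
G6pdx: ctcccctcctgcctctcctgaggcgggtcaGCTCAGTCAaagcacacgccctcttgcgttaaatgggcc
Mgst1: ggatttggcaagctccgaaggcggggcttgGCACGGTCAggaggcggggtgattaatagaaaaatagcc
Gclm: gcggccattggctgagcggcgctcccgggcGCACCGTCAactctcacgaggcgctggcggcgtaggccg
Txnrd1: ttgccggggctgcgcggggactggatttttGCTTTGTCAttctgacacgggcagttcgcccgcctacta

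The matches start 57, 56, 134 and 92 bases before the start site. Of 15030 tested genes with a promoter window of 300 bases, 15.8% held the motif in it. Over all 32851 such windows, 12.4% did. Of the 58 measured genes of the Nrf2 and glutathione list, 50 had a window and 14 of these held it (28.0%). Of the 10 list members that were higher in all 3 mice, 9 had a window and 2 of these held it. A match is a string of letters in this window and no evidence of binding.

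None of the 58 genes was called at 500 ppm. The list's median fold was 0.10, beside 0.12 over all genes, and 0.15 without mouse 3, where all genes had 0.02. Without control mouse 1 it was 0.05, where all genes had 0.04. Set against the control mean, the list's median was -0.17 in that control and 0.06 and 0.10 in the other controls. The list's median fold turned to -0.13 with the array median as the scale, where all genes had -0.11. Of the members 10 lay wholly above the controls (4.59% of all genes) and 1 wholly below (2.17%). These 10 were Ephx1, Gstm1, Aox1, Aldh3a1, Gstm3, G6pdx, Cbr1, Aldh1a1, Gsta2 and Mgst1, and all but G6pdx, which supplies NADPH, are enzymes that reduce, oxidise, hydrolyse or conjugate foreign compounds.

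By role, the median was 0.24 over 10 reductases and aldehyde enzymes, 5 of them wholly above the controls, and 0.14 over 12 glutathione transferases, 4 of them wholly above. It was 0.09 over 14 peroxidases and thioredoxin system genes and 0.01 over 10 genes of heme, iron and NADPH. Ephx1, microsomal epoxide hydrolase, had 5.44, 5.67 and 5.63 in the controls and 5.99, 5.93 and 5.86 at 500 ppm, a fold of 0.34 ± 0.20 (SE), or 0.38 without mouse 3.

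Gstm1, a glutathione transferase, had 5.86, 6.20 and 6.29 against 6.59, 6.30 and 6.33, but another of its probes gave -0.48. Aldh3a1, which oxidises aldehydes, had 2.72, 2.43 and 2.83 in the controls against 3.14, 3.12 and 3.04. Its fold of 0.44 ± 0.29 (SE) was 0.47 without mouse 3, and it ran from 0.21 to 0.54 over the alternatives.

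Genes that stood far above the controls at 5000 ppm had values near the controls at 500 ppm. All controls lay on slide 1 and all arrays at 2500 and 5000 ppm on slide 2. Diet and slide therefore cannot be told apart in any fold given for those 2 diets. Nqo1, the quinone reductase most used as a sign of Nrf2 activity, had -1.72, -1.66 and -1.78 in the controls and -1.51, -1.86 and -2.14 at 500 ppm, with a fold of -0.12 and a 95% interval from -0.57 to 0.34. Without mouse 3 it was 0.04. At 5000 ppm its fold against the same controls was 2.22. Nqo1 gave the smallest p of the contrast of 500 ppm with the other permethrin diets, at -1.16 ± 0.17 (SE) and an adjusted p of 0.454 (limma), and no gene passed in that contrast (1243 had an unadjusted p under 0.05, 3.67%).

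Gsta2, a glutathione transferase, had -0.35, -0.41 and -0.42 in the controls and -0.34, -0.12 and -0.22 at 500 ppm. Mouse 1 was barely above the highest control, and the fold was 0.17 (95% interval from -0.29 to 0.62). It turned to -0.07 with the array median as the scale, where the median over all genes was -0.11. At 5000 ppm the fold was 2.56. Gpx2, the glutathione peroxidase of epithelia, had 2.93, 3.48 and 3.14 against 3.56, 4.03 and 3.27, a fold of 0.44 (95% interval from -0.08 to 0.96), or 0.62 without mouse 3.

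For Srxn1, Txnrd1 and Cbr3, which repair peroxiredoxins, reduce thioredoxin and reduce carbonyls, the folds were 0.25, 0.19 and 0.24, or 0.36, 0.26 and 0.32 without mouse 3. The 500 ppm mice overlapped the controls in all 3, and the folds against the same controls at 5000 ppm were 1.61, 1.29 and 1.55.

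**Figure D4:**
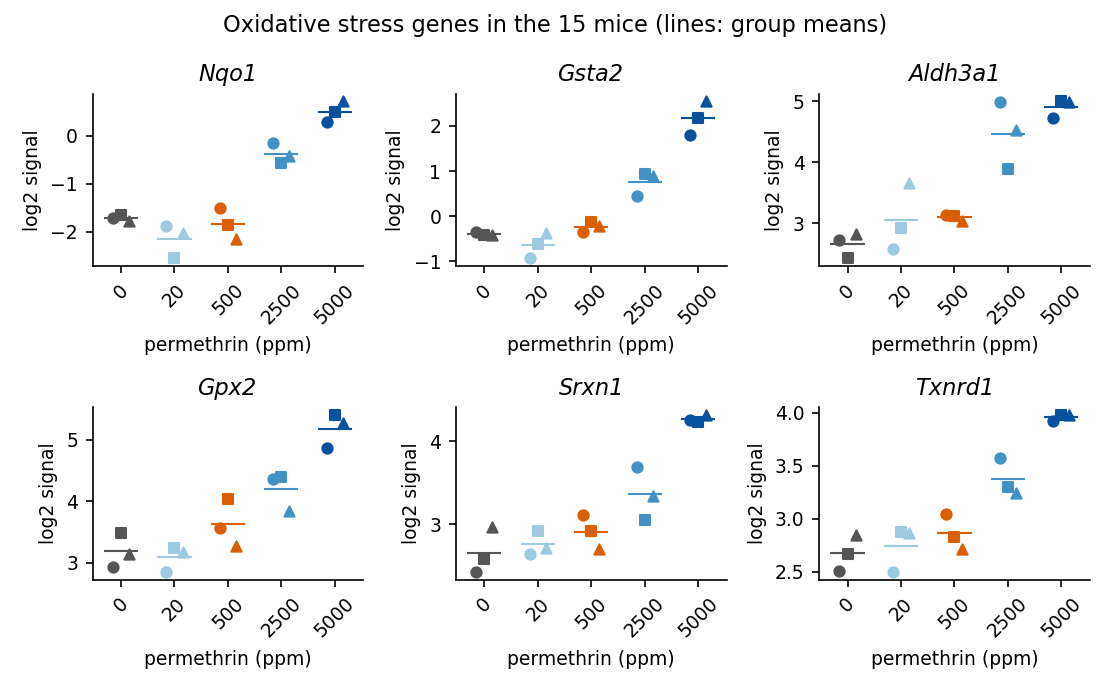
Log2 signal (vertical axes, 75th percentile of each array at 0) of 6 oxidative stress genes in the 15 mice, by permethrin in the diet in ppm (horizontal axes), with points for mice and short lines for group means. The 500 ppm mice lie near the controls, at -2.14 to -1.51 for Nqo1 and 3.04 to 3.14 for Aldh3a1, and every 5000 ppm mouse lies above them.

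In the lower direction, Gpx1, the main cytosolic glutathione peroxidase, had 5.76, 5.09 and 4.89 in the controls and 4.83, 4.75 and 4.76 at 500 ppm, a fold of -0.46 that was -0.21 without control mouse 1. Hmox1, heme oxygenase, had 2.28, 2.17 and 2.47 against 2.19, 1.76 and 1.15. Its fold was -0.61 ± 0.25 (SE) with mouse 3 the lowest, and -0.33 without it.

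Of 21 measured CAR and PXR targets and receptors, none had an unadjusted p under 0.05 (2.88% of all genes). None was wholly apart from the controls in either direction (6.76% of all genes were), so counts of 0 in 21 genes lie near these shares. Their median fold was 0.19, beside 0.12 over all genes. With the array median as the scale it was -0.04, beside -0.11 over all genes. Cyp2b10, the main CAR target of mouse liver, had 6.20, 6.73 and 6.88 in the controls and 6.75, 6.76 and 6.87 at 500 ppm. Its fold of 0.19 (95% interval from -0.33 to 0.71) turned to -0.04 with the array median as the scale, and another of its probes gave -0.47.

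Por, which passes electrons to P450 enzymes, had a fold of 0.20, and the receptor genes Nr1i2 (PXR) and Nr1i3 (CAR) had 0.63 and 0.08. Nr1i2 is dim, and its fold was 0.20 without mouse 3. Cyp1a1, the target of the aryl hydrocarbon receptor, had -0.995, -1.51 and -1.13 against -1.14, -1.38 and -1.66, a fold of -0.18, or -0.05 without mouse 3. Of 25 genes of pyrethroid metabolism 2 lay wholly above the controls, where 4.59% of all genes did.

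Of those, Cyp2j9, a P450 that acts on arachidonic acid, had 0.21, 0.60 and 0.43 against 1.15, 0.80 and 0.71, a fold of 0.47 ± 0.21 (SE), or 0.56 without mouse 3. The 11 carboxylesterases, which split permethrin's ester, had a median of 0.02 and of -0.13 without mouse 3. Among them Ces1a was well above background in 1 of 3 controls and in all 3 mice at 500 ppm, so it was kept through the latter, and no fold is given.

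Voltage-gated sodium channels, the target of permethrin in nerve, had 13 measured genes with a median of 0.19, or -0.04 without mouse 3. Scn3b, an auxiliary beta subunit, was the only member wholly below the controls (2.17% of all genes were). It had 4.79, 5.45 and 5.57 in the controls and 4.70, 4.63 and 4.39 at 500 ppm. Its fold was -0.70 ± 0.23 (SE) and -0.60 without mouse 3. Mice at 20 ppm, at 4.61, 4.48 and 5.15, overlapped those at 500 ppm.

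Scn2a, a pore-forming subunit of neurons, had -3.24, -3.33 and -3.54 against -3.33, -2.69 and -1.89, and its fold of 0.73 was 0.36 without mouse 3. Scn7a, a sodium-sensing channel of the lung among other tissues, had 0.55, 1.17 and 0.95 against 0.60, 1.04 and 0.30. Its fold was -0.24, or -0.07 without mouse 3, and the groups overlapped.

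Most cell division genes had lower values at 500 ppm, and none passed the test. Of 36 measured cell cycle genes 29 had a fold below 0, 10 lay wholly below the controls (2.17% of all genes) and none above (4.59%), and 3 had an unadjusted p under 0.05, all lower (0.798%). The median was -0.25, beside 0.12 over all genes. It was -0.38 without mouse 3 and ran from -0.48 to -0.18 over 33 alternatives. Settings that leave out an array of another diet cannot move this median, so their number is no measure of support. The median in each treated mouse, at -0.38, -0.35 and -0.12, lay beside -0.19, 0.20 and -0.02 in the controls, so mouse 3 was within the range of the controls.

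The median was -0.38 over 22 genes of mitosis and -0.16 over 14 of S phase, and the difference was not tested. Mki67, the Ki-67 antigen of dividing cells, had 0.78, 1.29 and 0.85 in the controls and 0.20, 0.26 and 0.58 at 500 ppm, a fold of -0.63 ± 0.28 (SE), or -0.75 without mouse 3. Ube2c, a ubiquitin ligase partner that ends mitosis, had -0.43, -0.23 and -0.80 against -1.57, -1.53 and -0.73, a fold of -0.79 ± 0.27 (SE), or -1.07 without mouse 3, which lay among the controls.

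Ccna2, cyclin A2, had -1.29, -0.71 and -1.24 against -1.85, -1.59 and -1.89, a fold of -0.70. Top2a, the topoisomerase of mitotic chromosomes, and Pbk, a mitotic kinase, had -0.68 and -1.15 with all 3 treated mice below the controls. In S phase, the replicative helicase subunit Mcm2 had -0.33 and the sliding clamp Pcna -0.22, and both were below the controls in all 3 mice. Without mouse 3 the folds were -0.64 for Ccna2, -0.75 for Top2a, -1.53 for Pbk, -0.37 for Mcm2 and -0.22 for Pcna. These 5 genes were chosen after their values were seen.

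**Figure D5:**
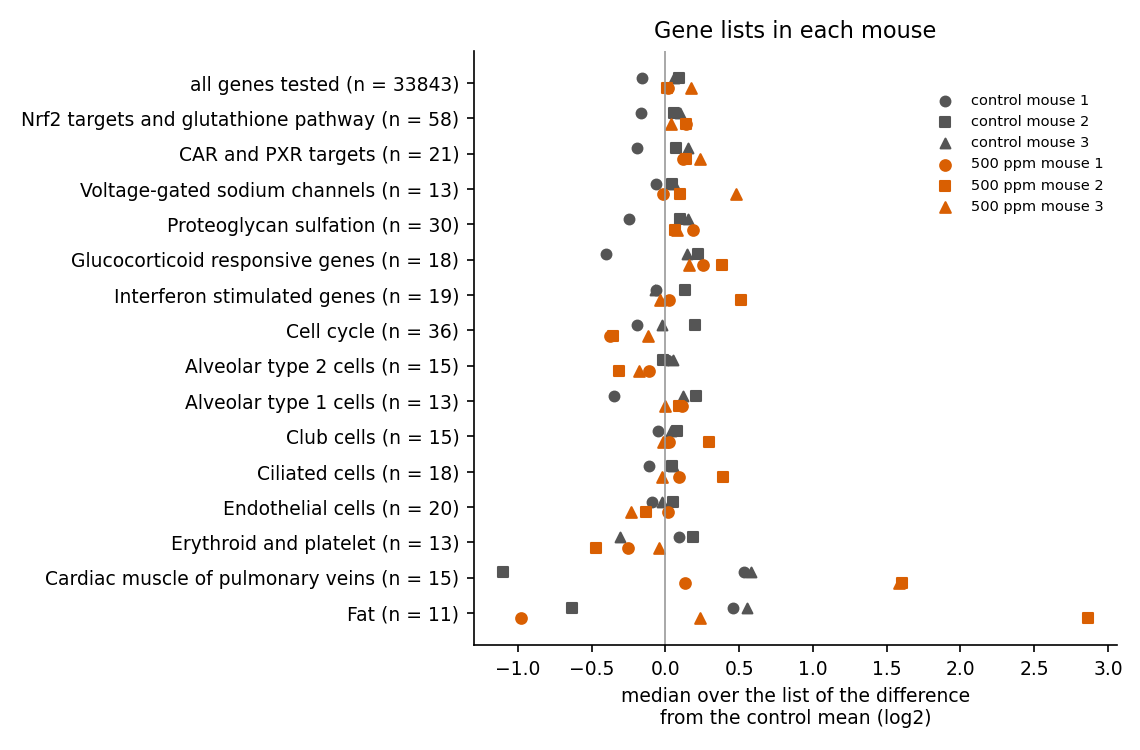
Median over each gene list of the difference from the control mean (log2, horizontal axis) in each control (grey) and 500 ppm mouse (orange), with the number of measured genes in brackets. Cell cycle genes stand at -0.38, -0.35 and -0.12 in the 500 ppm mice, and the fat list runs from -0.98 to 2.86 in them.

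Markers of the cell types of the lung gave small differences. Among 15 alveolar type 2 genes the median was -0.27. It ran from -0.50 to -0.12 over 33 alternatives, of which those that leave out an array of another diet cannot move it. Sftpa1, surfactant protein A, had 7.59, 7.31 and 7.34 in the controls and 7.23, 7.10 and 7.01 at 500 ppm, a fold of -0.30 ± 0.13 (SE). It was the only member wholly below the controls (2.17% of all genes were). Chia1, an acidic chitinase, had 4.46, 5.24 and 5.33 against 4.18, 4.63 and 3.83, a fold of -0.79. Without mouse 3 Sftpa1 had -0.24 and Chia1 -0.60.

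Sftpc itself had a fold of -0.10. Napsa, an aspartic protease of these cells, had 3.80 in control mouse 1 and 1.51 and 1.48 in the other controls, beside 1.53, 0.98 and 1.41 at 500 ppm. Its fold was -0.96, and -0.19 without control mouse 1. The list's median was -0.14 without that control.

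Club cells had a median of 0.26 over 15 genes, of which Scgb1a1 had a fold of 0.01 and Cyp2f2, the P450 of these cells, one of -0.03. Over 18 ciliated cell genes the median was 0.19, with 4 wholly above the controls (4.59% of all genes). It turned to -0.04 with the array median as the scale, where all genes had -0.11. In both lists mouse 2 was the highest of the treated mice, at 0.30 and 0.39. Foxj1, the master regulator of motile cilia, had -0.16.

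The endothelial gene Pecam1 had 1.15, -0.61 and -0.86 in the controls against -0.73, -0.86 and -0.47, a fold of -0.58 that was 0.05 without control mouse 1. Epcam, of epithelia, also had 1 control apart, at -0.87 beside -2.47 and -2.46, and mouse 3 at 500 ppm stood at -0.80 beside -2.42 and -2.70, and its fold was -0.04, or -0.63 without mouse 3. The leukocyte gene Ptprc had 0.13, the collagen gene Col1a2 0.04 and the type 1 cell gene Ager 0.11, while other probes of Ager gave 0.11, -0.33, -0.39 and -0.39.

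Lists of tissues next to the lung varied widely between mice. The heart muscle genes of the pulmonary veins had medians of 0.14, 1.61 and 1.59 in the 500 ppm mice and of 0.54, -1.10 and 0.58 in the controls. Fat genes had -0.98, 2.86 and 0.24 against 0.46, -0.64 and 0.56, and skeletal muscle genes were highest in mouse 3, at 1.41. The part of such tissue in the results above was not tested.

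In immune and hormone pathways some of the genes named here lay wholly apart from the controls, and others overlapped them. Of 19 interferon-stimulated genes, with a median of 0.20 beside 0.12 over all genes, 2 lay wholly above the controls (4.59% of all genes) and 1 below (2.17%). The median was -0.03 with the array median as the scale, where all genes had -0.11. Rsad2, viperin, was the lower one, with 0.48, 1.14 and 0.59 against 0.22, -0.14 and 0.32 and a fold of -0.60 ± 0.21 (SE), or -0.70 without mouse 3. Another of its probes gave -0.31, and on it the groups overlapped. Cxcl10, a T cell chemokine, was higher, with -0.42, -0.45 and -0.35 against 0.71, 0.38 and -0.29.

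The fold of Cxcl10 was 0.67 ± 0.29 (SE), and 0.95 without mouse 3. Cxcl10 was 0.80 ± 0.23 (SE) above the mean of the other permethrin diets, with an adjusted p of 0.98 (limma). Mice at 20 ppm, at -0.19, 0.37 and -0.20, overlapped those at 500 ppm. The folds at 2500 and 5000 ppm against the same controls were -0.53 and -0.26. The neutrophil chemokine Cxcl5 had -1.38, -2.54 and -0.67 against 0.65, -0.55 and -0.78, so that mouse 3 overlapped the controls, and its fold was 1.30 beside 2.61 at 5000 ppm against the same controls. It was 1.58 without mouse 3 and 0.80 without control mouse 2.

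Of 18 glucocorticoid-responsive genes 15 had folds above 0 (70.3% of all genes did), with a median of 0.25. It was 0.02 with the array median as the scale, where all genes had -0.11. Mt1, a metallothionein, was the one wholly above the controls (4.59% of all genes), with 4.49, 4.67 and 4.86 against 5.60, 5.19 and 5.03 and a fold of 0.60 ± 0.25 (SE), or 0.72 without mouse 3. The clock gene Per1 had 1.56, 3.60 and 2.46 against 3.98, 3.64 and 3.11, with the controls spread widely. Its fold of 1.04 was 0.54 without control mouse 1, 1.56 without control mouse 2 and 1.27 without mouse 3.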

How the data were processed

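Lung RNA of 15 mice was measured on 1-colour Agilent arrays. Per the file headers, Agilent Feature Extraction 10.7.3.1 gave the deposited processed signal, a background-subtracted intensity on a linear scale. The authors' deposited table holds log2 values that differ from log2 of that signal by 1 constant per array. Here spots called outliers by the software were left out and spots of a probe averaged (56556 probes), and log2 signals were centred on each array's 75th percentile. Probes well above background on all 3 control or all 3 500 ppm arrays were kept (42479). Symbols came from a RefSeq table of GRCm38.p6, and the kept probe with the highest mean stood for a symbol. A linear model was fitted to all 15 arrays in limma (version 3.58.1, R 4.3.3), each diet having its own coefficient, which leaves 10 residual degrees of freedom. Tests were two-sided, with Benjamini-Hochberg adjustment over all 33843 genes. The code was tested on simulated data. Errors are SE of the log2 fold, and the number of arrays limits the precision.

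The comparison, gene lists (43) and naming rule were chosen with earlier results of these data known. The rule takes, among genes with a symbol (model names aside) and no overlap between groups, 12 per direction by smallest p and 6 per direction by fold, then 2 members per list by p and a set of fixed genes. The text names some of these, and some are not reported here. Picked outside the rule, with their values in view, were the 7 probes without a symbol, Chst15, Ephx1, Gstm1, G6pdx, Mgst1, Gclm, Ccna2, Top2a, Pbk, Mcm2, Pcna, Hba-a1, Alas2 and Napsa. Other settings tried were normexp (planned on mean signals, run on the medians that the files hold), quantile and median scaling, the deposited values, 3 other filters, other probe rules, replicate and slide blocks, trend and robust settings, array weights, the 6 arrays alone and each array left out. Like-numbered control and 500 ppm arrays had correlations of deviations of 0.02, -0.06 and -0.17, so the numbers do not pair the mice.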

Additional observations from a re-analysis of the deposited data

How the results depend on the processing

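The count of genes called at 500 ppm against control was 0 in most settings. It was 4 with the array median as the scale, 1 within slide 1 and 0 to 1 as single arrays were left out. The 973 genes at an unadjusted p under 0.05 became 546 with normexp, 2836 with array weights, 569 with only the 6 arrays compared and 632 to 1996 with single arrays left out: 632 without control mouse 1, 1676 without control mouse 3, 1957 and 1996 without mouse 1 and mouse 2 at 500 ppm. They became 1753 without the third arrays at 500 and 2500 ppm and 295 with a filter for bright genes, both added after the data were seen. Their split moved too: 72.3% were higher in the reported analysis, 49.5% with quantile normalization, 34.8% with the array median as the scale and 32.0% without mouse 3. Against the other permethrin diets, the count of 0 became 5726 with slide as a fixed block, 30 with array weights, and 1 both with the array median and within slide 1. Only the 500 ppm diet lay on both slides, so the slide term of that block fit was set by mouse 3 against mice 1 and 2. The count of 5726 thus rests on the array of mouse 3, and its cause was not tested further. With the replicate number as a block, 0 genes were called and 1229 had an unadjusted p under 0.05.

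The array median as the scale lowers every fold by the same amount and took the median over all genes from 0.12 to -0.11. With it, folds turned to -0.12 for Ager, -0.19 for Col1a2, -0.04 for Cyp2b10, -0.07 for Gsta2, -0.12 for Mgst1, -0.15 for Nr1i3, -0.03 for Por, -0.10 for Ptprc, -0.23 for Scgb1a1 and -0.04 for Txnrd1. Array weights gave -0.06 for Ager, 0.12 for Cyp1a1, 0.08 for Foxj1, 0.08 for Nqo1, -0.16 for Nr1i3 and -0.06 for Scgb1a1. Quantile normalization gave 0.06 for Hba-a1 and 0.00 for Scgb1a1, and normexp -0.04 for Col1a2. Nqo1 had 0.04 with slide as a fixed block, within slide 1 and without the third arrays at 500 and 2500 ppm. Other probes gave -0.33, -0.39 and -0.39 for Ager, -0.47 for Cyp2b10, -0.48 for Gstm1, -0.01 for Mgst1, -0.27 for Nfia and -0.14 for Scn2a, and the mean of a gene's probes -0.18 for Ager, -0.14 for Cyp2b10 and -0.09 for Gstm1.

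With single arrays left out, the range was -0.10 to 0.26 for Ager, -0.10 to 0.24 for Col1a2, -0.01 to 0.33 for Cyp2b10, -0.09 to 0.01 for Cyp2f2, -0.63 to 0.49 for Epcam, -0.33 to 0.14 for Foxj1, -0.96 to 0.05 for Pecam1, -0.11 to 0.03 for Hba-a1, -0.28 to 0.04 for Nqo1, -0.09 to 0.18 for Nr1i3 and -0.08 to 0.07 for Scgb1a1. Each group holds 3 mice, and 1 array at 500 ppm lies on another slide, which limits the precision.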
